A study of Mus musculus with 6 samples.

Results

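The 42 genes described here act in the uptake, storage, oxidation and synthesis of fatty acids or regulate these steps. They were chosen by gene symbol, and all 42 were found among the 24062 genes of the count table, each with at least 1 count in the 6 libraries. By step they comprise 11 genes of uptake, 10 of storage, 10 of oxidation, 6 of synthesis and 5 regulators. The counts come from translating ribosome affinity purification followed by RNA-seq (TRAPseq), in which a GFP-tagged ribosomal protein L10a is retrieved with an anti-GFP antibody together with the RNAs bound to ribosomes. By the study's account the tissue was gastrocnemius and soleus muscle of female GFP-L10a EC mice. These are a cross of Rosa26 fsTRAP with VECad-Cre mice, so that the tag depends on a Cre driven by the vascular endothelial cadherin promoter. The study describes all mice as ovariectomized and then given either placebo pellets (vehicle) or 17β-estradiol (E2) pellets for 4 weeks. There were 3 vehicle and 3 E2 libraries. The labels give mice of 4 weeks of age, whereas the study's methods give an older age at ovariectomy. Each label names a pair of mouse numbers. The study's methods give 6 biological replicates per group, and the sources used here do not say whether the paired mice were pooled. The p-values therefore measure the spread between these libraries, part of which may be technical.

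Circulating triglycerides reach muscle as lipoproteins, from which lipoprotein lipase releases fatty acids at the luminal face of capillaries. The fatty acids cross the capillary endothelium with the help of the membrane protein CD36 and cytosolic fatty acid binding proteins such as FABP4. In muscle fibers they are activated to acyl-CoA, stored in lipid droplets or oxidized in mitochondria, and endothelial cells oxidize a share of them as well.

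Libraries differed in depth and in make-up. Totals were 288838, 451034 and 84823 counts in vehicle replicates 1 to 3, and 125932, 198537 and 201010 counts in E2 replicates 1 to 3, so that 1 count was worth between 2.22 and 11.8 CPM (counts of a gene scaled to a common library total of 1000000). A set of 4 Y-linked genes gave 40 counts for vehicle replicate 1, 63 for vehicle replicate 2 and 0 for the rest, although the study describes female mice. All 14 endothelial markers had counts, and their summed level was 935, 1002 and 295 CPM with vehicle and 143, 393 and 672 CPM with E2, overlapping between groups. The summed level of 14 muscle fiber markers was far higher, at 49091 to 87585 CPM with vehicle and 38108 to 45573 CPM with E2, without overlap. Markers of smooth muscle and pericytes summed to 118 to 675 CPM with vehicle and 212 to 230 CPM with E2, those of fibroblasts to 554 to 648 CPM and 517 to 596 CPM, and those of immune cells to 45.0 to 118 CPM and 39.7 to 90.7 CPM, all with overlap. Fewer endothelial cells and less RNA per cell cannot be told apart in these bulk libraries.

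Counts of most of the 42 genes were low. The median gene had 22 counts over the 6 libraries, 31 genes had 10 or more, and 8 genes passed the filter on low counts and were tested (Cd36, Fabp4, Cidec, Acadm, Hadha, Scd1, Fasn and Acacb). Of these 8, Fabp4 alone passed the threshold of 0.05 on the Benjamini-Hochberg adjusted p of edgeR's quasi-likelihood test, as a fall, and none rose, beside 2.97% of all 1682 genes tested that fell and 2.5% that rose. The study takes genes with p of 0.05 or less before adjustment and an average log2 CPM of 0 or more, and among the 8 genes left by the filter used here Cd36 and Fabp4 were lower with E2 by this threshold and none was higher, beside 15.1% and 10.5% of all genes tested. With no filter, where all 42 genes entered a test of 14057 genes, 5 were lower by that threshold (Cd36, Fabp4, Lpl, Plin1 and Acsl3) and none was higher, beside 6.81% and 3.27% of all genes. At the adjusted threshold with no filter, 2 were lower (Fabp4 and Lpl) and none was higher, beside 0.939% and 0.221% of all genes. The median log2 fold change of the 8 genes was -0.42, with 6 below and 2 above 0, beside a median of 0.01 over all genes tested. Vehicle and E2 libraries did not overlap in 2 of the 8 genes, Fabp4 and Acadm, both lower with E2, and in none that was higher, beside 12.8% and 8.68% of all genes tested. Among the 31 genes with 10 or more counts, 3 were lower without overlap (Lpl, Fabp4 and Acadm) and 1 was higher (Fabp3), beside 10.5% and 6.17% of the 6843 genes of the table with as many counts. An exact permutation test of 1 gene over 3 and 3 libraries cannot go below p = 0.1.

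**Figure D1:**
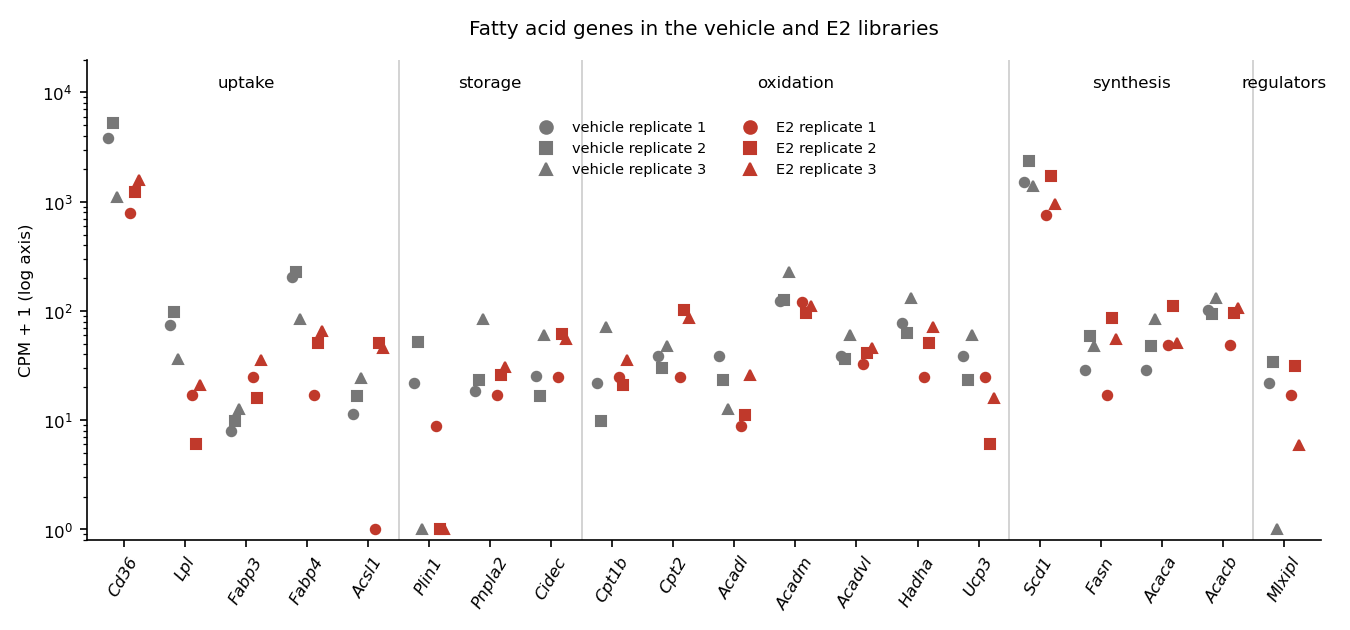
CPM + 1 on a log axis for the 20 genes with the most counts or without overlap, ordered by step, with 1 point per library (grey for vehicle, red for E2, the shape giving the replicate). Cd36 and Scd1 stand above the other genes in every library, and vehicle replicates 1 and 2 are the highest for Cd36, Lpl and Fabp4.

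Cd36, Fabp4 and Lpl, all genes of uptake, were highest in vehicle replicates 1 and 2. Cd36, the fatty acid translocase of the plasma membrane, was measured at 3812, 5197 and 1108 CPM with vehicle and at 786, 1234 and 1592 CPM with E2. Vehicle replicates 1 and 2 were above every E2 library, whereas vehicle replicate 3 lay within the range of the E2 libraries. The log2 fold change was -1.31 with a standard error of 0.54, a level 2.47-fold lower with E2, at an unadjusted p of 0.0255 and an adjusted p of 0.133 in edgeR's quasi-likelihood test. Counting error was small beside this spread, since the 94 counts of vehicle replicate 3 gave an exact 95% Poisson interval of 896 to 1356 CPM. Intervals of this kind cover counting error only. With vehicle replicates 1 and 2 left out, the log2 fold change of Cd36 was 0.26, so that its direction rested on these libraries.

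The gene Cd36 lies on mouse chromosome 5 (chr5:17781690-17888801, mm10, minus strand). Its RefSeq promoter, 250 bases before to 50 bases after a transcription start (GRCm38.p6, chr5:17835847-17836146, minus strand), is shown because Cd36 had the most counts of the 42 genes. This start lies inside the annotated gene, downstream of its outermost start. Capitals mark matches on either strand to AGGTCA, the half-site bound by nuclear receptors, which include the peroxisome proliferator-activated receptors and the estrogen receptors, and to CCAAT.
Cd36 promoter: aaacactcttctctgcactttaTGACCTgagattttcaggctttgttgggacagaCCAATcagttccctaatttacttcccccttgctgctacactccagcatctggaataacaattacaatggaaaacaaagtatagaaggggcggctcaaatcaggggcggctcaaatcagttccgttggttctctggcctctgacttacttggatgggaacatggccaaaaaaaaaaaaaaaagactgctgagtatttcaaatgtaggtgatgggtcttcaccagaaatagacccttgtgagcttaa
The half-site began 228 bases before the start on the minus strand of the window, and CCAAT began 195 bases before it. A direct repeat of the half-site with 1 base between, allowing 2 mismatches, was found 63 bases before the start. An inverted repeat of the half-site with 3 bases between, again allowing 2 mismatches, was not found in this window, and neither was TATAAA. Of all 32851 promoters in the table, 16.3% held the half-site, 3.86% the direct repeat, 1.5% the inverted repeat, 37.4% CCAAT and 13.6% TATAAA. The table held 42 promoters of 33 of the 42 genes, of which 11 (26.2%) had the half-site, those of Acadm, Plin2, Acacb, Pparg, Ucp3, Acadvl, Plin5, Cpt1a and Cd36. The direct repeat was found in 3 of the 42 promoters (7.14%), those of Cd36, Plin2 and Ucp3, and the inverted repeat in 1 (2.38%), that of Acaca. GC content was 43.0% in the Cd36 promoter and 52.7% in the median promoter of the table. A match of letters is a description of these windows and was not tested for binding.

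Fabp4, which encodes a cytosolic fatty acid binding protein of capillary endothelium and adipocytes (chr3:10204088-10208576, minus strand), was measured at 204, 228 and 82.5 CPM with vehicle and at 15.9, 50.4 and 64.7 CPM with E2. Every vehicle library was above every E2 library, although vehicle replicate 3 with its 7 counts was close to E2 replicate 3 with 13 counts. The log2 fold change was -1.81 with a standard error of 0.53, a level 3.51-fold lower with E2, and the adjusted p was 0.0499 in edgeR's quasi-likelihood test, at the edge of the threshold. Leaving out any single library but vehicle replicate 3 ended the call, with adjusted p-values of 0.11 to 0.265 at log2 fold changes of -2.22 to -1.39, and in the same fits the genes lower in the whole table went from 50 to between 2 and 11. Without vehicle replicate 3 the adjusted p of Fabp4 was 0.000492. With vehicle replicates 1 and 2 left out, the log2 fold change of Fabp4 was -0.72 at an adjusted p of 0.810 in the same test.

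Lpl encodes lipoprotein lipase (chr8:68880491-68907448, plus strand), which is secreted by muscle fibers and adipocytes and carried to the capillary lumen by GPIHBP1. Its counts were 21, 44 and 3 with vehicle and 2, 1 and 4 with E2, or 72.7, 97.6 and 35.4 CPM against 15.9, 5.04 and 19.9 CPM. Every vehicle library was above every E2 library, but most of its counts came from vehicle replicates 1 and 2. Lpl did not pass the filter. With no filter its log2 fold change was -2.41 at an adjusted p of 0.0437 in edgeR's quasi-likelihood test, and the adjusted p ranged from 0.000242 to 0.592 when each library was left out of that fit in turn.

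The summed endothelial markers, like Cd36, Fabp4 and Lpl, were highest in vehicle replicates 1 and 2, and the level of each gene was therefore also taken per 100 counts of those markers. Single markers differed, since 7 of the 14 were highest in vehicle replicate 1 or 2 and the other 7 in an E2 library. Those highest in vehicle replicate 1 or 2 reached 20 (Pecam1) to 118 (Kdr) counts in a library. Of those highest in an E2 library, Cdh5 reached 131 counts, whereas Tie1, Vwf, Robo4, Esam, Cldn5 and Emcn had at most 11 in any library. Among the 3 markers tested, the log2 fold change was -2.22 for Kdr, -0.80 for Egfl7 and 0.13 for Cdh5, the gene whose promoter drives the Cre, and none passed the adjusted threshold of edgeR's test. Cd36 stood at 408, 519 and 376 per 100 marker counts with vehicle and at 550, 314 and 237 with E2, so that the groups overlapped and E2 replicate 1 was the highest of all (p = 0.5, exact two-sided permutation test). Fabp4 stood at 21.9, 22.8 and 28.0 per 100 marker counts with vehicle and at 11.1, 12.8 and 9.63 with E2, and every vehicle library remained above every E2 library (p = 0.1, exact permutation test). Of these ratios, that of E2 replicate 1 rested on 2 counts of Fabp4 over 18 of the markers, and that of vehicle replicate 3 on 7 over 25. Lpl stood at 7.78, 9.74 and 12 with vehicle and 11.1, 1.28 and 2.96 with E2, where E2 replicate 1, with 2 counts of Lpl and 18 of the markers, lay within the vehicle range. Per 10000 muscle fiber marker counts the order was different, with Fabp4 at 23.3, 35.4 and 16.8 under vehicle and 4.10, 11.1 and 17.0 under E2, so that E2 replicate 3 lay just above vehicle replicate 3. On that base Lpl stood at 8.30, 15.1 and 7.20 with vehicle and at 4.10, 1.11 and 5.22 with E2, without overlap, and Cd36 overlapped. Adipocyte markers, 8 genes with 16, 36 and 2 counts under vehicle and 7, 9 and 7 under E2, overlapped between groups at 23.6 to 79.8 CPM with vehicle and 34.8 to 55.6 CPM with E2, and all 8 had counts. Single adipocyte markers differed, with 3 highest in vehicle replicate 1 or 2, 1 in vehicle replicate 3 and 4 in an E2 library. Cebpa had 9, 14 and 0 counts with vehicle and 2, 0 and 0 with E2, and Slc7a10 had 0, 4 and 0 against 2, 6 and 3. Whether cells of any of these kinds account for a part of the differences in Cd36, Fabp4 and Lpl was not tested.

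**Figure D2:**
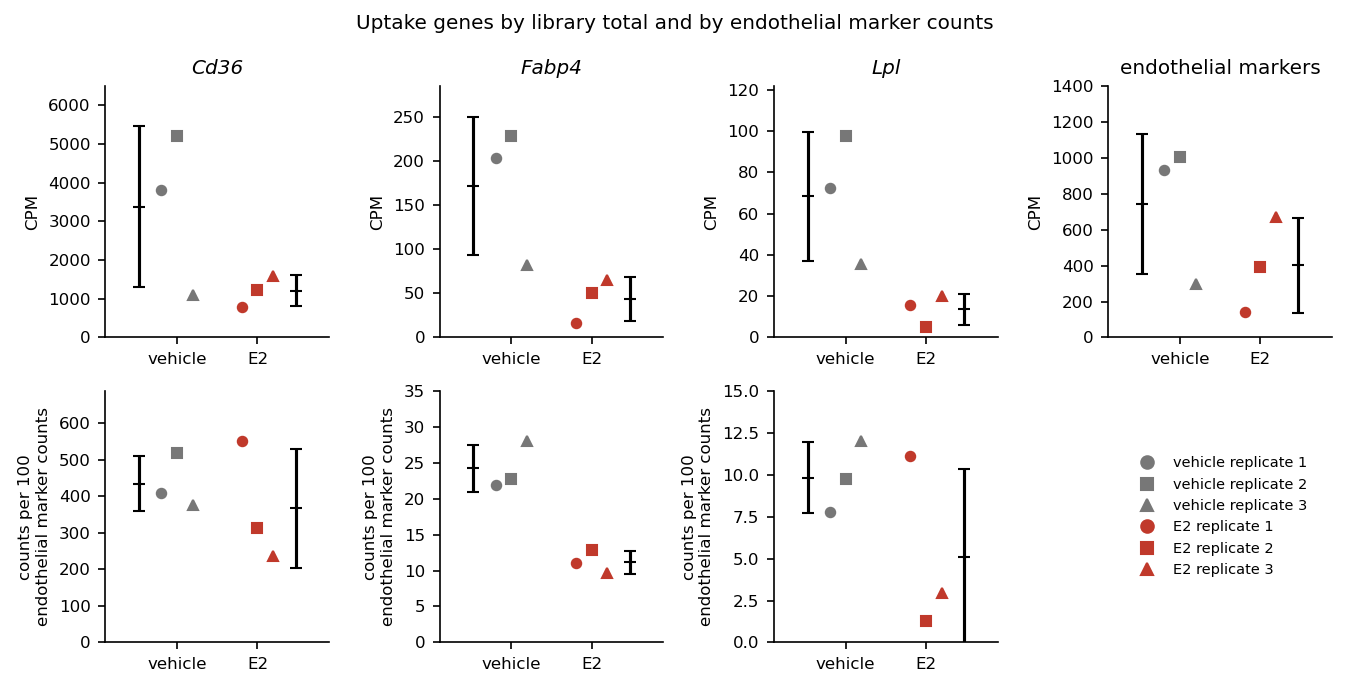
Upper row, CPM of Cd36, Fabp4 and Lpl and the summed CPM of 14 endothelial markers, and lower row, the counts of the 3 genes per 100 endothelial marker counts, with 1 point per library and black bars for the mean ± SD of 3 libraries. Per marker count, Fabp4 keeps the vehicle libraries (21.9 to 28.0) above the E2 libraries (9.63 to 12.8), whereas Cd36 and Lpl overlap. The Fabp4 ratio of E2 replicate 1 rests on 2 counts of Fabp4 and 18 of the markers.

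Among the other uptake genes, Fabp3, the fatty acid binding protein of muscle and heart, was higher with E2 in every library. Its counts were 2, 4 and 1 with vehicle and 3, 3 and 7 with E2, or 6.92, 8.87 and 11.8 CPM against 23.8, 15.1 and 34.8 CPM. At so few counts the Poisson intervals of all 6 libraries overlapped, from 0.299 to 65.7 CPM in vehicle replicate 3 and from 14.0 to 71.8 CPM in E2 replicate 3. Exons of Fabp3 share 81 bases with those of Zcchc17 on the opposite strand, and the sources used here do not say whether counting used the strand. Acsl1, a long-chain acyl-CoA synthetase, had 3, 7 and 2 counts with vehicle and 0, 10 and 9 with E2, equal to 10.4, 15.5 and 23.6 CPM and to 0, 50.4 and 44.8 CPM, with E2 replicate 1 below and the other E2 libraries above all vehicle libraries. The 0 counts of E2 replicate 1, taken to allow up to 3 counts, allow up to 23.8 CPM. Fabp5 had 29 counts in all, the fatty acid transport proteins Slc27a1 and Slc27a4 had 11 each, and the acyl-CoA synthetase Acsl4 had 12, all with overlap between groups. Gpihbp1, which carries lipoprotein lipase across endothelial cells and is made by them, had 5 counts in all. The 7 counts of Acsl3, a further acyl-CoA synthetase, were in vehicle replicates 1 and 2, and with no filter its unadjusted p was 0.0384 and its adjusted p 0.436 in edgeR's test. Summed without Cd36, the uptake genes stood at 336, 406 and 189 CPM with vehicle and at 95.3, 201 and 234 CPM with E2, again with vehicle replicate 3 among the E2 libraries.

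Of the 10 genes of lipid storage, only Cidec passed the filter, and it did not pass either threshold. Their summed level was 100, 113 and 224 CPM with vehicle and 119, 151 and 179 CPM with E2, and here vehicle replicate 3 was the highest library. Cidec, a protein of the lipid droplet surface that promotes droplet growth, was measured at 24.2, 15.5 and 58.9 CPM with vehicle and at 23.8, 60.4 and 54.7 CPM with E2, from 3 to 12 counts a library. The groups overlapped, and its log2 fold change of 1.05 with a standard error of 0.67 had an adjusted p of 0.336 in edgeR's quasi-likelihood test, which became 0.0316 without vehicle replicate 3. Plin1, the perilipin of adipocyte lipid droplets, had 6, 23 and 0 counts with vehicle and 1, 0 and 0 with E2, or 20.8, 51.0 and 0 CPM against 7.94, 0 and 0 CPM. As for Lpl, nearly all of these counts came from vehicle replicates 1 and 2, and with no filter the log2 fold change of Plin1 was -3.65, at an unadjusted p of 0.000906 and an adjusted p of 0.0670 in edgeR's quasi-likelihood test. With each library left out of that fit in turn, it ranged from -5.93 to -2.52 and the adjusted p from 0.00216 to 0.821. Pnpla2, the adipose triglyceride lipase, had 17.3, 22.2 and 82.5 CPM with vehicle and 15.9, 25.2 and 29.8 CPM with E2, from 2 to 10 counts a library and with overlap. Lipe, the hormone-sensitive lipase, had 18 counts in all, and its exons share 918 bases with the opposite-strand gene 4732471J01Rik, which had 297. Plin4 and Dgat1 had 15 counts each, Dgat2 had 9, Plin2 had 7, Adipoq, the adipocyte hormone adiponectin, had 4 and Plin5 had 2, and the groups overlapped in each.

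Genes of mitochondrial oxidation were held at low to moderate levels in both groups, with summed levels of 374, 313 and 625 CPM with vehicle and 262, 348 and 428 CPM with E2. Vehicle replicate 3, which was low for uptake genes, was the highest library for this step. Acadm, the medium-chain acyl-CoA dehydrogenase, was measured at 121, 124 and 224 CPM with vehicle and at 119, 95.7 and 109 CPM with E2. The libraries did not overlap, but vehicle replicate 1 and E2 replicate 1 were close, and the log2 fold change of -0.33 with a standard error of 0.46 had an adjusted p of 0.690 in edgeR's quasi-likelihood test. Hadha, the alpha subunit of the mitochondrial trifunctional protein, had 76.2, 62.1 and 130 CPM with vehicle and 23.8, 50.4 and 69.6 CPM with E2. E2 replicate 3 was above vehicle replicate 2, and the log2 fold change of -0.55 with a standard error of 0.51 had an adjusted p of 0.524 in the same edgeR test.

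The other oxidation genes were below the filter, and all of them overlapped between groups. Cpt2, the inner-membrane carnitine palmitoyltransferase, had 38.1, 28.8 and 47.2 CPM with vehicle and 23.8, 101 and 84.6 CPM with E2, with E2 replicate 1 the lowest library and the other E2 libraries the highest. Cpt1b, the outer-membrane enzyme of muscle that commits fatty acids to oxidation, had 20.8, 8.87 and 70.7 CPM against 23.8, 20.1 and 34.8 CPM, with E2 libraries inside the vehicle range. Acadl, the long-chain acyl-CoA dehydrogenase, had 38.1, 22.2 and 11.8 CPM with vehicle and 7.94, 10.1 and 24.9 CPM with E2. Acadl was highest in vehicle replicate 1 and overlapped between groups. Acadvl, the very long-chain enzyme, had 38.1, 35.5 and 58.9 CPM against 31.8, 40.3 and 44.8 CPM. Acadvl shares 1151 exonic bases with Dvl2 on the opposite strand, which had 5 counts. Ucp3, the uncoupling protein of skeletal muscle, had 38.1, 22.2 and 58.9 CPM with vehicle and 23.8, 5.04 and 14.9 CPM with E2. E2 replicate 1 was above vehicle replicate 2, so that the groups overlapped for Ucp3 as well. Hadhb had 10 counts in all, Cpt1a, the form found in most other tissues and in endothelial cells, had 7 and Acaa2 had 5, with overlap in each. The summed muscle fiber markers were lower with E2 in every library, as was Acadm, but single markers differed. Of the 14, 10 had a log2 fold change below 0, 6 of them without overlap, beside 12.8% of all genes tested, and 4 were above 0, among them Acta1 at 1.80, and none passed the adjusted threshold of edgeR's test. Per 10000 muscle fiber marker counts, Acadm stood at 13.8, 19.2 and 45.6 with vehicle and at 30.8, 21.0 and 28.7 with E2. On that base the groups overlapped (p = 0.7, exact two-sided permutation test). The part of muscle fibers in the values of Acadm was not tested.

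**Figure D3:**
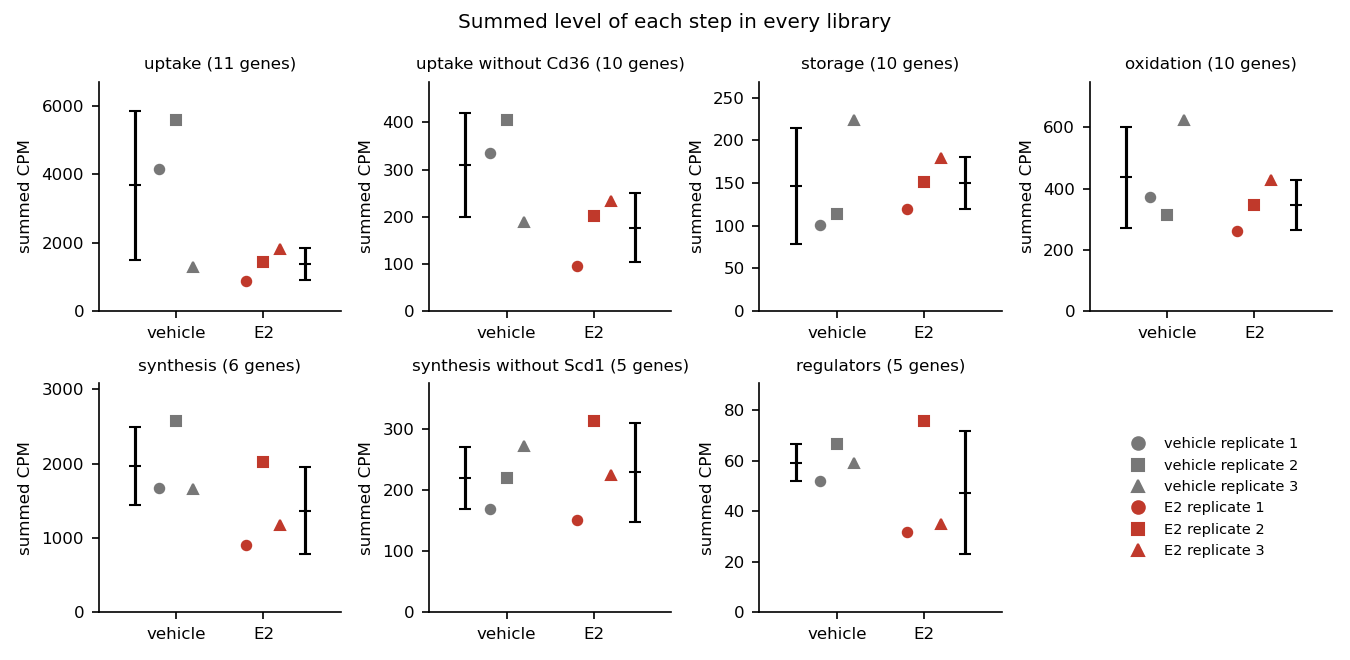
Summed CPM of the genes of each step in every library, each panel from 0, with black bars for the mean ± SD of 3 libraries. Vehicle replicate 3 is the lowest vehicle library for uptake (1297 CPM) and the highest vehicle library for storage (224 CPM) and oxidation (625 CPM), and the groups overlap in all panels.

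Synthesis genes were dominated by Scd1, the stearoyl-CoA desaturase that makes monounsaturated fatty acids, which was at 1499, 2352 and 1391 CPM with vehicle and at 754, 1713 and 955 CPM with E2. E2 replicate 2 lay within the vehicle range, and the log2 fold change of -0.50 with a standard error of 0.46 had an adjusted p of 0.513 in edgeR's quasi-likelihood test. Reads of Scd1 and its close paralog Scd2 may not have been fully separated by the counting. Acacb, the acetyl-CoA carboxylase whose product inhibits carnitine palmitoyltransferase 1, had 100.4, 93.1 and 130 CPM with vehicle and 47.6, 95.7 and 104 CPM with E2, with a log2 fold change of -0.15 and a standard error of 0.45 (adjusted p = 0.849, edgeR). Only E2 replicate 1 was below all vehicle libraries. Fasn, fatty acid synthase, had 27.7, 57.6 and 47.2 CPM against 15.9, 85.6 and 54.7 CPM, a log2 fold change of 0.44 with a standard error of 0.56 (adjusted p = 0.666, edgeR), with E2 replicate 1 the lowest and E2 replicate 2 the highest library. Acaca, the cytosolic acetyl-CoA carboxylase of fatty acid synthesis, had 27.7, 46.6 and 82.5 CPM with vehicle and 47.6, 111 and 49.7 CPM with E2, with overlap. The acetyl-CoA synthetases Acss2 and Acss1 had 24 and 3 counts in all. Without Scd1, the synthesis genes summed to 170, 219 and 271 CPM with vehicle and to 151, 312 and 224 CPM with E2, and the E2 libraries spanned the whole vehicle range.

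None of the 5 regulators passed the filter. Mlxipl, the carbohydrate response element binding protein that drives synthesis genes, had 20.8, 33.3 and 0 CPM with vehicle and 15.9, 30.2 and 4.97 CPM with E2, from 0 to 15 counts a library and with overlap. Pparg, the receptor that drives adipocyte genes and also acts in capillary endothelium, had 19 counts in all, of which 15 were in vehicle replicates 1 and 2. The coactivator Ppargc1a had 11 counts, Ppard had 9 and Ppara had 7, each with overlap between groups. Together the regulators summed to 51.9, 66.5 and 58.9 CPM with vehicle and to 31.8, 75.6 and 34.8 CPM with E2, and E2 replicate 2 was the highest library.

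**Figure D4:**
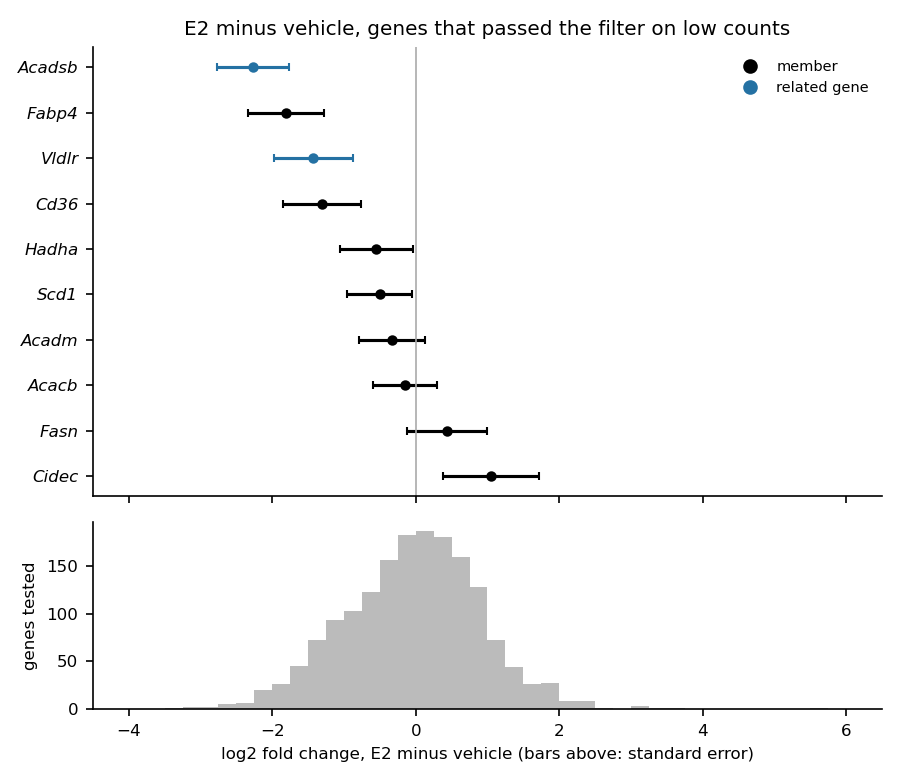
Log2 fold change (E2 minus vehicle) with its standard error for the 8 tested genes (black) and for Acadsb and Vldlr (blue), above the distribution of the log2 fold change over all 1682 genes tested. Fabp4 (-1.81) and Acadsb (-2.27) passed the adjusted threshold, and Cidec (1.05) had the highest value of the 8 genes.

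Levels of different genes were compared per length, as CPM per kilobase of annotated exons. Cd36 was the highest of the 42 genes in both groups, at 939 ± 579 CPM per kilobase with vehicle and 335 ± 112 with E2 (SD, n = 3). Scd1 followed at 357 ± 108 with vehicle and 233 ± 103 with E2, and its mean ± SD overlapped that of Cd36 in either group. Acadm at 40.0 ± 15.0, Fabp4 at 38.3 ± 17.4 and Cidec at 17.7 ± 12.4 came next with vehicle, and the mean ± SD of each of these 3 overlapped that of the others. With E2, Fabp4 was the eighth gene in order, at 9.72 ± 5.59 CPM per kilobase. The annotation of Fabp4 includes a transcript that spans the whole gene without introns (4489 bases), so that its level per kilobase is understated.

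A set of 93 other genes of the same pathways, listed by symbol, was read in the same fit. Of these, 82 had counts and 11 were tested, 1 of which fell at the adjusted threshold (Acadsb) and 2 at p of 0.05 or less before adjustment (Acadsb and Vldlr), while none of the 11 rose at either, beside the 2.97% and 15.1% of all genes tested that fell. With no filter, 6 were lower before adjustment (Acadsb, Vldlr, Cidea, Tcf15, Cav1 and Agpat2) and 1 was higher (Gpam), beside 6.81% and 3.27% of all genes. At the adjusted threshold with no filter, Acadsb and Cidea were lower and none was higher, beside 0.939% and 0.221% of all genes. Acadsb, which encodes the short/branched chain acyl-CoA dehydrogenase of isoleucine breakdown, was measured at 256, 313 and 118 CPM with vehicle and at 31.8, 65.5 and 34.8 CPM with E2. All vehicle libraries were above all E2 libraries, and the log2 fold change was -2.27 with a standard error of 0.50 (adjusted p = 0.0184, edgeR). Leaving out any single library but vehicle replicate 3 ended this call as well, with edgeR's adjusted p-values up to 0.11. Vldlr, a receptor for triglyceride-rich lipoproteins, had 125, 99.8 and 47.2 CPM against 7.94, 65.5 and 19.9 CPM, with E2 replicate 2 above vehicle replicate 3, and a log2 fold change of -1.43 with a standard error of 0.55 (unadjusted p = 0.0176, adjusted p = 0.115, edgeR). Both genes again had their highest values in vehicle replicates 1 and 2. The other 4 of the 5 genes with the most counts overlapped between groups, with Scd2, the desaturase paralog, at 283 to 696 CPM with vehicle and 373 to 428 CPM with E2. Me1, the cytosolic malic enzyme that supplies NADPH, was at 141 to 330 CPM with vehicle and 119 to 196 CPM with E2. Acsl6, an acyl-CoA synthetase, was at 201 to 448 CPM and 124 to 365 CPM, and Got2, a mitochondrial aspartate aminotransferase, was at 165 to 215 CPM and 159 to 199 CPM. Of the 50 genes of the set with 10 or more counts, 4 were lower without overlap (Acadsb, Cav1, Agpat1 and Agpat2) and 1 was higher (Rxrb), beside 10.5% and 6.17% of genes with as many counts, and all but Acadsb had between 14 and 45 counts in all. Cav1, Agpat1, Agpat2, Rxrb, Gpam, Cidea and Tcf15 are named because of their values. Cidea, a lipid droplet protein, had 10 and 19 counts in vehicle replicates 1 and 2 (34.6 and 42.1 CPM) and 0 elsewhere. Tcf15, which encodes a transcription factor, had 8 and 10 counts in these libraries (27.7 and 22.2 CPM) and 0 elsewhere. In vehicle replicate 3, where 3 counts are worth 35.4 CPM, the 0 counts of either gene do not show that its RNA was absent. Vehicle replicates 1 and 2 were also the libraries with Y-linked transcripts, which no E2 library had. A difference in the sex of the mice behind these libraries therefore cannot be told apart from E2 treatment between the groups. Whether the differences share a source was not tested.

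**Figure D5:**
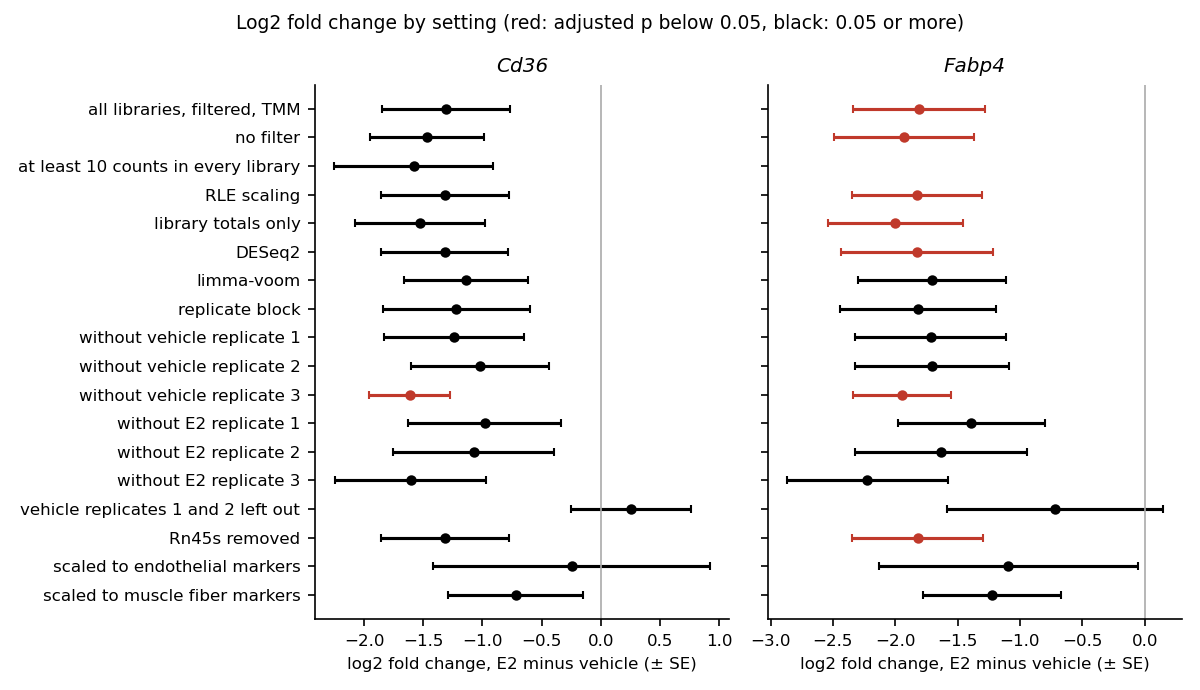
Log2 fold change (E2 minus vehicle) of Cd36 and Fabp4 with its standard error under each setting of the analysis, red where the adjusted p was below 0.05. Cd36 passed only without vehicle replicate 3 (-1.62) and was above 0 with vehicle replicates 1 and 2 left out (0.26), and Fabp4 was below 0 in every setting in which it was tested. Fabp4 was not tested with at least 10 counts in every library.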

How the data were processed

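Reads were demultiplexed with bcl2fastq (2.17), checked with FastQC (0.11.2), mapped to mm10 with STAR (2.5.3a) and counted per gene with featureCounts of Subread (1.6.0), per the study's methods and the submitters' processing notes. The authors deposited whole-number counts per gene symbol without normalization. The labels name a stranded total RNA kit and the methods a ribosome profiling kit.

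E2 was compared with vehicle from the deposited counts with edgeR (4.0.16, limma 3.58.1, R 4.3.3), using filterByExpr, TMM and the quasi-likelihood test over all genes, with Benjamini-Hochberg adjustment. The standard error of a log2 fold change was its size divided by the square root of F. Library totals were the base of CPM. Permutation tests were exact and two-sided, on log2(CPM + 1), or, per 100 marker counts, on log2 ratios with 0.5 counts added. The fit was tested on simulated data. No source used here mentions molecular identifiers. The gene lists were chosen with earlier results of these data known. Per-library values are given for genes that were tested, had 30 or more counts, or did not overlap between groups at 10 or more counts. Related genes are named if past the study's threshold after the filter or among the 5 with the most counts. Symbols Gpat3 and Gpat4 were matched by RefSeq synonym. Positions and exons are from GENCODE M21 (mm10), and promoters from RefSeq (GRCm38.p6). In total, 15 planned and 2 later alternatives were run.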

Additional observations from a re-analysis of the deposited data

How the results depend on the processing

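Of 162 log2 fold changes of the 8 tested genes, Acadsb and Vldlr under 17 alternatives, 152 kept their sign. With vehicle replicates 1 and 2 left out, where the lone vehicle library was assumed to vary like the others, Cd36 was at 0.26. Scalings to the summed endothelial or muscle fiber markers were chosen after seeing the data and moved the median of all genes tested to 0.90 and 0.53, and library totals moved it to -0.15. On the endothelial scale Acadm, Scd1 and Acacb were at 0.31, 0.35 and 0.29, and on the fiber scale at 0.15, 0.0064 and 0.36, or, relative to those medians, at -0.59, -0.55 and -0.61, and at -0.38, -0.53 and -0.17. On the endothelial and fiber scales Cd36 was at -0.25 and -0.72 (adjusted p of 0.939 and 0.426 in edgeR's test) and Fabp4 at -1.10 and -1.22 (0.734 and 0.176), or, relative to the same medians, at -1.15 and -1.26 and at -1.99 and -1.76. With single libraries left out, Acadm ranged from -0.59 to 0.062 and Acacb from -0.40 to 0.15.

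Fabp4 was tested in 16 alternatives, was lower with E2 in each (-2.22 to -0.72) and passed the adjusted threshold in 6. Members that fell at an adjusted p below 0.05 (1 as reported) numbered 2 with no filter (Fabp4 and Lpl), 0 with at least 10 counts in every library, limma-voom, the replicate block, vehicle replicates 1 and 2 left out and either marker scaling, and 0 to 3 with single libraries left out. In those settings calls of lower genes in the whole table, 50 as reported, numbered 0 with at least 10 counts, 9 with limma-voom, 1 with the block, 1 with vehicle replicates 1 and 2 left out and 0 and 4 on the endothelial and fiber scales. Without vehicle replicate 3, Cd36, Fabp4 and Lpl fell (adjusted p of 0.000761, 0.000492 and 0.00202 in edgeR's test) and Cidec, Cpt2 and Acaca rose (0.0316, 0.0241 and 0.0479), giving 0 to 3 members higher, while the genes called in all went from 50 lower and 42 higher to 526 and 477. At the unadjusted threshold, members lower (2 as reported) numbered 5 with no filter, 1 with at least 10 counts, the replicate block or the fiber scale, 0 with vehicle replicates 1 and 2 left out or the endothelial scale, and 1 to 3 with single libraries left out. Members higher (0 as reported) numbered 1 with limma-voom or the fiber scale and 0 to 3 with single libraries left out.

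Related genes lower at the adjusted threshold (1 as reported) numbered 2 with no filter, 0 with at least 10 counts, the replicate block, vehicle replicates 1 and 2 left out and either scaling, and 0 to 2 with single libraries left out, and those higher numbered 0 to 1. At the unadjusted threshold, lower genes (2 as reported) numbered 6 with no filter, 0 with at least 10 counts, vehicle replicates 1 and 2 left out or the endothelial scale, 1 on the fiber scale and 1 to 3 with single libraries left out. Higher genes (0 as reported) numbered 1 with no filter, limma-voom or vehicle replicates 1 and 2 left out, 2 on the fiber scale and 0 to 2 with single libraries left out. Same-numbered libraries deviated together with correlations of -0.13, 0.02 and -0.19, so the numbers were not taken to pair them. With the replicate block, the adjusted p of Fabp4 was 0.158 and that of Acadsb 0.0847 in edgeR's test. Where a value moved, the cause was not tested. Of the 42 genes, 34 were below the filter. Among them a limit on a count of 0 was printed for Acsl1 alone, and 3 counts were worth 6.65 to 35.4 CPM by library.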
